A study of Mus musculus with 4 samples.

Results

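Malat1, Neat1, Miat, Meg3, Rian, Mirg, H19, Kcnq1ot1, Snhg11 and Gas5 are 10 long noncoding RNA genes whose sites of N6-methyladenosine (m6A) were read at single-base resolution in mouse retinal organoids. The members were the rows of the site tables that carry 1 of these gene names, and all 10 are annotated by RefSeq as long noncoding RNAs. They held 1052 listed positions, out of 1076788 positions listed in any library and 833043 that the tables place in 1 of 20001 named genes. A position found in 1 library is called a listing here, and the 10 genes had 1153 listings.

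All 4 libraries came from the Rx:GFP mouse line, whose own Mettl3 gene carries a C-terminal FKBP12F36V-HA tag, so that the untreated controls carry the same degron allele as the treated cells. The organoids were differentiated in medium with KSR and AGN, and 2 libraries received no dTAG13 (labelled 0hr) while 2 received 125 nM dTAG13 for 8 h at day 6. dTAG13 is a small molecule that recruits an E3 ubiquitin ligase to FKBP12F36V and so leads to degradation of the tagged protein. The growth text names Mettl3 throughout, whereas the genotype field of 3 of the libraries reads Mettl4, Mettl5 or Mettl6. A vehicle control, a line without the degron and the METTL3 protein level were not analysed here, and the Mettl3 transcript does not check a degron that acts on protein. Nothing in the labels says that the libraries of a group came from separate cultures, so p-values measure the spread between these samples, which may be technical.

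m6A is written on RNA mainly by a complex of METTL3, the catalytic subunit, and METTL14, its partner. GLORI deaminates unmethylated adenosine with glyoxal and nitrite, so that it is read as G, while m6A is still read as A. A site's level was thus taken as A reads over A plus G reads, in percent. Long noncoding RNAs include some of the most studied m6A carriers: MALAT1 holds methylated hairpins, and the nuclear-retained RNAs of the group are expressed in many cell types, developing neural tissue among them.

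The libraries listed 335607 and 350462 sites (untreated) and 220034 and 263069 sites (dTAG13), with median depths of 75 to 91 A and G reads per site. The tables list a site only with at least 15 reads, at least 5 A reads and a level of at least 10%, so a missing site has no measured level. Of the markers used to check the label, all 8 retinal progenitor genes were listed in every library, with summed gene coverage of 2336 to 3871, and all 4 pluripotency genes were too, at 615 to 883. Of the 4 mesoderm and endoderm genes, 3 were listed, 1 of them (Sox17) in every library, with summed coverage of 26 to 158, and T was not listed. The neuron and neural crest lists summed to 219 to 328 and to 0 to 60.5. A gene without a listed site in a library had no coverage value there and added nothing to the sum. The mesoderm and endoderm, neuron and neural crest sums thus cover different genes in different libraries. The neural crest sum of 0 was in untreated library 1, where neither gene was listed, and is not a measured coverage. In bulk RNA, fewer cells of a type and less RNA per cell cannot be told apart. The positions printed are those of the tables, whose contig names are of a newer style than the mm10 build that the submitters' processing notes name. Only 108 of the 1052 positions (10.3%) fell inside the RefSeq intervals of their gene on GRCm38. All of these were Rian positions (108 of 130, 83.1%), and no position of another member fell inside. The positions printed should thus not be read as mm10 positions. No exon, intron or flanking base was therefore assigned.

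The level at which sites were listed ranged widely between the 10 genes, while the median over all member listings stood at 20.2% and 23.3% without dTAG13 and at 22.1% and 29.2% with it. Listings of H19, Gas5, Malat1 and Rian lay low, with median levels of 13.3%, 13.9%, 16.8% and 19.2%. Mirg at 20.4% and Meg3 at 25.8% followed. Snhg11 at 49.6% and Miat at 66.1% were higher, and the median listing of Neat1 and of Kcnq1ot1 was at 100%. The order of the medians ran against the order of gene coverage, a per-gene depth value in the tables. Neat1, Kcnq1ot1, Miat and Snhg11 had mean coverages of 70.0, 55.9, 76.0 and 97.8, while H19 had 1272, Rian 696, Gas5 484 and Malat1 367. Across the 10 genes, Spearman's rho between median level and mean coverage was -0.95, and across the 12475 genes with at least 5 listings it was -0.83; the points share the 4 libraries and the listing limits, and the values are a description.

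**Figure D1:**
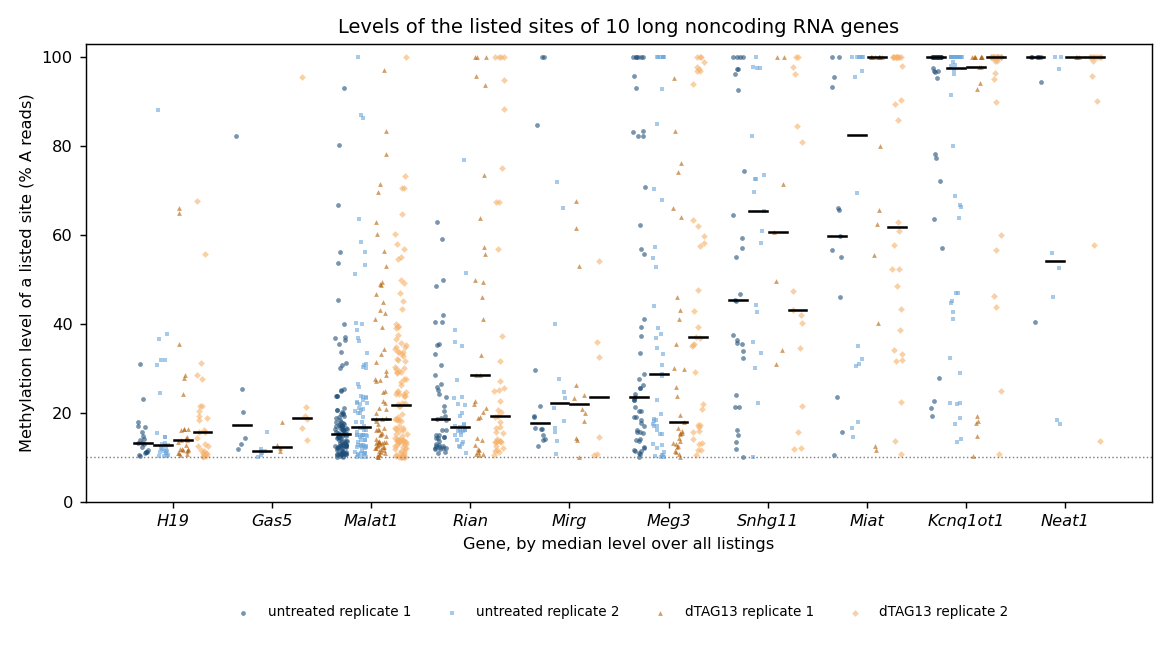
Level of every listed site (percent A among A and G reads, vertical axis) of the 10 genes, ordered by their median level, with 1 colour and marker per library and a black bar at the median of each gene in each library. The dotted line marks the listing limit of 10%, H19 and Gas5 crowd just above it, and Neat1 and Kcnq1ot1 sit mostly at 100%.

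The same listings sorted by level showed how much depth stood behind them. The 511 listings at 10 to 20% had a median of 261 reads, the 303 at 20 to 50% had 130, the 130 at 50 to 90% had 57, and the 209 at 90% or more had 36. For all genes the medians in these bands were 192, 99, 58 and 32 reads. Listings at 90% or more made up 18.1% of the members' listings and 16.3% of those of all genes. They were 33.7% of the listings of the 1614 genes with a RefSeq long noncoding RNA biotype and 16.7% of those of protein-coding genes. In genes with a mean coverage under 100, 29.5% of all listings were at 90% or more, against 1.80% in genes with 500 or more. Within that lowest band, the share was 38.2% for 189 RefSeq long noncoding RNA genes other than the members and 30.1% for protein-coding genes. At a coverage of 100 to 200 these shares were 11.2% and 11.8%, and at 200 to 500 they were 5.06% and 4.26%. At 500 or more they were 0% and 1.87%. The 209 member positions at 90% or more in some library came back in another library at 7 positions (3.35%), and none was at 90% or more in 2 libraries. Over all genes, 7.41% of such positions came back, 2736 of 146508 of them at 90% or more in 2 or more libraries. Of the 843 member positions that stayed below 90%, 84 (9.96%) were listed again, against 61188 of 686535 (8.91%) over all genes.

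Most member positions were seen in 1 library alone. Of the 1052 positions, 961 occurred in a single library, 83 in 2 of them, 6 in 3 and 2 in every library. The share listed in 2 or more libraries was 8.65%, and over all genes it was also 8.65%. A fixed list of other long noncoding RNA genes, of which 41 of 54 had a listed site, gave 9.38%. The members shared 22 positions between the untreated libraries, 14 to 23 between an untreated and a dTAG13 library, and 16 between the dTAG13 libraries. The median absolute difference in level at shared positions was 8.69 percentage points between the untreated libraries, 4.72 to 7.52 across treatments and 11.1 between the dTAG13 libraries. At these few member positions, differences across treatments were thus no larger than those within a group. A shared position is at 10% or more in both libraries, so a site that fell below that does not enter. Over all genes the pairs shared 25086, 12953 to 14168 and 11156 positions in the same order. Their median differences were 9.67, 9.33 to 9.66 and 8.28 points.

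Malat1, an abundant nuclear RNA retained in speckles and the host of the small tRNA-like mascRNA, had the most sites. Without dTAG13 the tables listed 111 and 78 sites, and with it 71 and 112. The groups overlapped, since the untreated and dTAG13 libraries each held a high and a low count. Its 336 positions filled 6829 bases of chromosome 19 (5845830 to 5852658, minus strand). Each full 500-base window, counted from the first site in the direction of transcription, held 18 to 33 positions and the shorter last one 11, and the window medians ranged from 14.1% to 25.9%. Another listed site lay within 10 bases of 42.2% of its listings, against 30.3% over all genes. The share was alike for H19, at 42.4%, and ran from 11.4% (Kcnq1ot1) to 32.6% (Rian) for the other members.

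The deepest repeated Malat1 site, position 5849777, was at 16.9% (1192 reads) and 14.9% (1564 reads) without treatment and at 13.4% (531 reads) in dTAG13 library 1. It was the only Malat1 position listed in 3 libraries, and its level with dTAG13 differed from the untreated mean by -2.55 points. Position 5847887 was listed in the untreated pair alone, at 30.1% (670 reads, 95% Wilson interval 26.8 to 33.7%) and 23.9% (1185 reads, 21.5 to 26.4%). These intervals, which here and below cover counting error only, did not overlap although the treatment was the same. Position 5851453 was listed in the dTAG13 pair alone, at 60.3% (466 reads, 55.8 to 64.6%) and 32.0% (843 reads, 29.0 to 35.3%), and its neighbour 5851495 at 42.4% (559 reads) and 58.0% (755 reads). The libraries of the pair thus ranked these neighbouring sites in opposite order. Of the 35 repeated Malat1 positions, 5 were in the untreated pair alone, 6 in the dTAG13 pair alone and 24 in both groups. Among those 24 the level was lower with dTAG13 at 8 and higher at 16, with differences from -37.7 to 43.8 points and a median of 2.38. The largest fall was at 5851589, from 87.1% (93 reads) in untreated library 2 to 49.4% (89 reads) in dTAG13 library 1.

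Neat1, the RNA around which paraspeckles assemble, lies next to Malat1 on the same strand (positions 5876696 to 5894842). It was listed at 8, 8, 3 and 13 sites (untreated 1, untreated 2, dTAG13 1, dTAG13 2), and none of its 32 positions was listed in more than 1 library. The level was 90% or more at 24 of the 32 (75.0%), or 7, 3, 3 and 11 in the same order of libraries, so that untreated library 2, with 3 of 8, had the lowest share. Position 5892627 was read as A by all 321 reads in untreated library 2 (100%, 98.8 to 100%). Position 5893717 was at 100% (68 reads) in untreated library 1, and 5876926 was at 100% (68 reads) in dTAG13 library 2. The highest levels of Neat1 thus stood in untreated and treated libraries alike, at different bases in each.

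Miat, also called Gomafu and first described in retinal precursor cells and neurons, had 13, 16, 16 and 28 sites. It had 71 positions on chromosome 5 (112361244 to 112376491, minus strand), 2 of them repeated, and 32 of its 73 listings (43.8%) were at 90% or more. Position 112361449 was listed in the untreated pair alone, at 66.1% (62 reads) and 35.0% (20 reads). Position 112364625 was at 100% (15 reads) in untreated library 1 and at 80.0% (20 reads) in dTAG13 library 1. Its best covered high sites were listed once each, such as 112365102 at 100% (105 reads) in untreated library 2 and 112369367 at 100% (83 reads) in dTAG13 library 1. The mean number of Miat sites was 1.52 times as high with dTAG13, but dTAG13 library 1 and untreated library 2 both held 16.

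**Figure D2:**
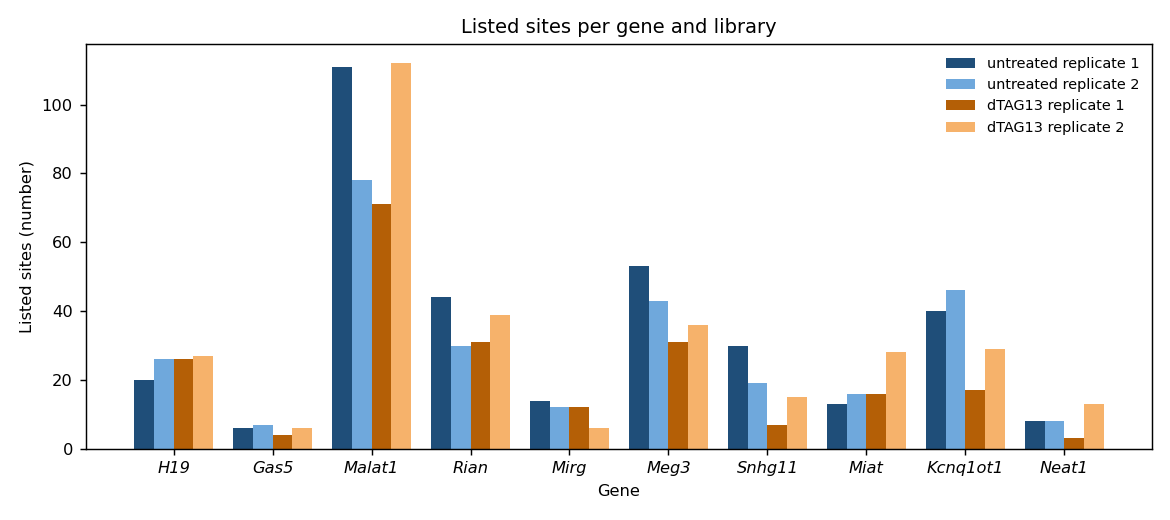
Number of listed sites (bars from 0) of each gene in each of the 4 libraries. Meg3, Kcnq1ot1 and Snhg11 are the genes with both dTAG13 bars below both untreated bars, an order held by 44.6% of all genes listed in every library. Malat1 has its lowest and its highest bar among the dTAG13 libraries.

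Meg3, Rian and Mirg are neighbouring RNAs of the Dlk1-Dio3 imprinted domain on chromosome 12, expressed from the maternal allele and hosts of small RNAs. Meg3 is the first of them, Rian carries many C/D snoRNA genes and Mirg carries miRNA genes. RefSeq places 2 miRNA genes in Meg3, 3 miRNA and 11 snoRNA genes in Rian and 10 miRNA genes in Mirg. The 3 genes held the only member positions listed in all 4 libraries, both in Meg3, and 2 of the 6 members' positions in 3 libraries lay in Meg3 and 2 in Rian.

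Meg3 had 53 and 43 sites before treatment and 31 and 36 after it, a ratio of 0.698. Both dTAG13 libraries fell below both untreated libraries, as they did for 44.6% of the 12520 genes listed in every library. Most of its sites lay near the ends of the listed span. The first 6000-base window from the first site, starting at 109506967, held 82 of 141 positions and 11 of the 16 repeated ones. The last 245 bases, from 109537865 to 109538109, held 16 positions and the other 5 repeated ones. Between them, 43 positions were spread over 18987 bases and none was listed in a second library.

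Position 109510201 of Meg3 was at 23.3% (450 reads) and 37.8% (516 reads) without dTAG13 and at 23.8% (172 reads) and 17.3% (1067 reads) with it. The means were 30.6% ± 10.2 and 20.6% ± 4.60 (SD, n = 2 each). The groups overlapped, and the difference of -9.97 points did not pass the test (adjusted p = 0.564, quasi-binomial model with moderation by limma). Position 109511680 was at 14% (399 reads), 34.5% (168 reads), 13.6% (59 reads) and 14.1% (460 reads) in the same order. The means were 24.3% ± 14.5 and 13.8% ± 0.404 (SD, n = 2 each), untreated library 1 lay among the treated libraries, and the difference of -10.4 points did not pass either (adjusted p = 0.894, quasi-binomial model with limma). These were the only member sites that could be tested. Of the 2321 sites tested in the tables, 53 (2.28%) passed, 51 (2.20%) lower and 2 (0.0862%) higher with dTAG13, and 217 (9.35%) had an unadjusted p under 0.05, which neither Meg3 site had. With the reads of both sites summed, the level of Meg3 was 19%, 37.0%, 21.2% and 16.4%, and its adjusted p was 0.595 (quasi-binomial model with limma), where 46 of 1016 genes (4.53%) passed, all lower, and 141 (13.9%) had an unadjusted p under 0.05. In each of these 3 values untreated library 2 was the highest. Without it the differences were -2.75, -0.19 and -0.17 points.

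At the distal end of Meg3, untreated library 1 stood above untreated library 2. Position 109537991 was at 83.1% (362 reads) and 18.2% (214 reads), and 109537983 at 62.2% (328 reads) and 10.4% (211 reads), both listed in the untreated pair alone. Position 109537934 was at 41.1% (124 reads) and 17.6% (131 reads) in that pair. Position 109537926 was at 39.3% (206 reads) and 30.8% (130 reads), and at 63.3% (60 reads) in dTAG13 library 2. At the proximal end, 109512132 was at 15.6% (231 reads) in untreated library 1 and at 12.4% (290 reads) and 12.9% (256 reads) in the dTAG13 libraries. Of the 9 Meg3 positions listed in both groups, 3 were lower and 6 higher with dTAG13, with a median difference of 19.4 points. Over all genes 56.0% of such positions were higher, with a median of 1.57 points. The largest Meg3 difference, 49.8 points at 109511600, rested on 33 reads in dTAG13 library 2. The untreated pair alone shared 7 Meg3 positions and the dTAG13 pair alone shared none.

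**Figure D3:**
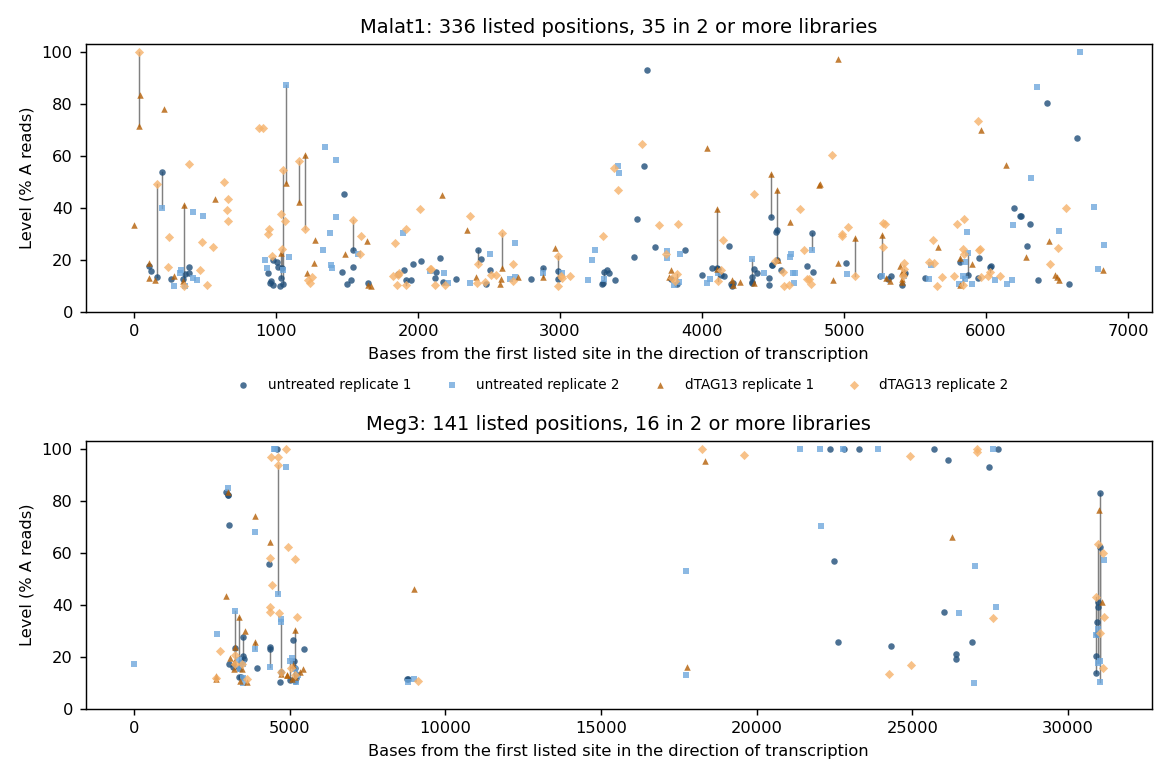
Level of every listed position (percent A reads) of Malat1 and Meg3 against its distance in bases from the first listed site in the direction of transcription, coloured by library, with grey lines joining the listings of a repeated position. Malat1 positions run along the whole gene, while the repeated positions of Meg3 are at the start and at the far end, with 0 of 43 repeated between.

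Rian had 44, 30, 31 and 39 sites, and the groups overlapped. Its 130 positions covered 57624 bases (109570398 to 109628021, plus strand), 64 of them in the fifth 10000-base window from the first site. Position 109613062 was listed in the untreated pair alone at 26.6% (956 reads, 23.9 to 29.5%) and 21.7% (1130 reads, 19.4 to 24.2%), with overlapping intervals. Position 109627361 was at 40.4% (513 reads, 36.2 to 44.7%) in untreated library 1, 18.9% (206 reads) in dTAG13 library 1 and 13.4% (238 reads) in dTAG13 library 2. Both treated libraries were thus lower than the 1 untreated library that listed it, a difference of -24.2 points that could not be tested. The nearby position 109627294 was at 13.8% (289 reads) in untreated library 2 and at 12.7% (283 reads) and 19.3% (238 reads) with dTAG13. All 10 Rian listings at 90% or more were in the dTAG13 libraries, 5 in each, on 16 to 50 reads. They made up 16.1% and 12.8% of the Rian listings there, against 17.6% and 18.4% over all genes. In the untreated libraries the Rian share was 0%, against 15.8% and 14.5% over all genes. The all-gene shares include many genes of low coverage. Among genes with a mean coverage of 500 or more, where Rian lies at 696, the share pooled over libraries was 1.80%. The Rian shares with dTAG13 were thus above that of genes of like coverage, and the untreated shares were near it. This difference was not tested. The 2 largest rises among all members were among these 10 listings. Position 109612304 went from 14.3% (154 reads) to 95.0% in only 20 reads, and 109593575 from 16.2% (105 reads) to 93.8% in 16 reads.

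Mirg had 14, 12, 12 and 6 sites, and the groups met at 12. All 7 of its repeated positions lay within 172 bases (109715563 to 109715734), a stretch that held 19 of its 37 positions. Position 109715636 was listed in the untreated pair alone at 21.5% (302 reads) and 21.1% (223 reads), closer to each other than at any position that the untreated pair alone shared in Meg3 or Rian. Position 109715734 was at 27.6% (116 reads) in untreated library 2 and 10.5% (171 reads) in dTAG13 library 2. The other 5 were listed in both groups at 10.7 to 24.0%, 4 of them higher with dTAG13 by 3.95 to 8.38 points and 1, at 109715655, with a difference of -5.76 points.

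H19 and Kcnq1ot1 belong to neighbouring imprinted domains of chromosome 7. H19, expressed from the maternal allele and the host of a miRNA that restrains growth, was the best covered member. Kcnq1ot1, expressed from the paternal allele, is an antisense RNA that silences genes of its domain in cis. The tables give a strand for each site, but how reads were assigned to strands is not given in the sources used here, so reads of Kcnq1ot1 and of the overlapping gene Kcnq1 may not be separated.

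H19 had 20, 26, 26 and 27 sites within 2515 bases (142129272 to 142131786, minus strand), and 15 of its 83 positions were repeated. Of its 99 listings, 76 were below 20% and 0 were at 90% or more. Position 142129790 was at 11.9% (2055 reads) in untreated library 2, 10.9% (1472 reads) in dTAG13 library 1 and 11.4% (1716 reads) in dTAG13 library 2. Position 142129794, 4 bases away, was at 11.3% (2051 reads) and 10.6% (1484 reads) in untreated library 2 and dTAG13 library 1. The differences with dTAG13 were -0.72 and -0.66 points at these deeply read sites. Both sites lay just above the listing limit of 10%, so a library with a level below it would not list them. Untreated library 1 listed neither site, and dTAG13 library 2 did not list 142129794. Position 142129305 was listed in the dTAG13 pair alone at 27.7% (173 reads) and 27.6% (312 reads). Other H19 sites moved further within a group: 142129942 was at 10.2% (206 reads) and 37.8% (368 reads) in the untreated pair. The largest rise was at 142129837, from 14.6% (788 reads) in untreated library 2 to 66.1% (177 reads) in dTAG13 library 1. In the 10 positions listed in both groups, 6 were lower and 4 higher with dTAG13, with a median of -0.37 points.

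Kcnq1ot1 had 40 and 46 sites without dTAG13 and 17 and 29 with it, a ratio of 0.535 against 0.714 over all genes. Both dTAG13 libraries fell below both untreated libraries, as they did for 44.6% of the 12520 genes listed in every library. The 131 positions of Kcnq1ot1 were scattered over 69546 bases (142780626 to 142850171, minus strand). Only 11.4% of its listings had another listed site within 10 bases. At 92 of 132 listings (69.7%) the level was 90% or more, on a median of 34 reads. Position 142828727 was at 100% (213 reads, 98.2 to 100%) in untreated library 1, 142834209 at 100% (144 reads) in dTAG13 library 1 and 142849764 at 100% (136 reads) in dTAG13 library 2. Each was listed in that library alone. The only repeated position, 142823697, was at 78.3% (23 reads) in untreated library 1 and 100% (57 reads) in dTAG13 library 2.

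Snhg11 and Gas5 are host genes of small nucleolar RNAs, which are processed from introns and guide the modification of ribosomal and other RNAs. RefSeq places 2 snoRNA genes in Snhg11 and 8 in Gas5. Gas5 is also known for its rapid decay when it is translated, and Snhg11 is expressed mainly in neural tissue. Against a ratio of 0.714 over all genes, Snhg11 had 30 and 19 sites without dTAG13 and 7 and 15 with it. Its ratio was 0.449, the lowest of the 10 genes. None of its 71 positions (chromosome 2, 158217691 to 158228037, plus strand) was listed again in another library. Among its sites with at least 50 reads the highest was 158223178 at 97.3% (148 reads) in untreated library 1 and 158226446 at 100% (107 reads) in untreated library 2. Under the same minimum of 50 reads, the highest in the dTAG13 libraries were 158228000 at 71.4% (63 reads) and 158226320 at 84.6% (149 reads). With all listings counted, both dTAG13 libraries also held sites at 100%, and the share at 90% or more was 26.7%, 21.1%, 28.6% and 26.7% (untreated 1, untreated 2, dTAG13 1, dTAG13 2).

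Gas5 had 6, 7, 4 and 6 sites, the fewest of the 10 genes in sum over the libraries, on a mean coverage of 484. Of its 20 positions on chromosome 1 (160863373 to 160866108, plus strand), 3 were repeated. Position 160865823 was listed in the untreated pair alone, at 20.3% (1337 reads, 18.2 to 22.5%) and 10.6% (1637 reads, 9.23 to 12.2%). The untreated libraries thus differed beyond counting error at the deepest site of Gas5, and in 1 of them it stood just above the listing limit. Position 160863567 was at 10.1% (129 reads) in untreated library 2 and 16.7% (216 reads) in dTAG13 library 2, and 160865094 at 11.3% (168 reads) in untreated library 2 and 18.0% (128 reads) in dTAG13 library 1.

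Summed over the 10 genes, the number of listed sites did not differ between the groups beyond the spread of libraries. The libraries listed 339 and 285 sites without dTAG13 (312 ± 38.2, SD, n = 2) and 218 and 311 with it (264.5 ± 65.8, SD, n = 2), a ratio of 0.848. In an exact permutation test, two-sided, p was 0.667, and 0.333 is the smallest p that 2 against 2 libraries allow. For all genes the ratio was 0.714, and for the fixed list of other long noncoding RNA genes 0.709. Both dTAG13 libraries were below both untreated libraries for 3 of the 10 genes, Meg3, Kcnq1ot1 and Snhg11, and above for 0, where the shares over all genes were 44.6% below and 4.53% above. dTAG13 library 1 was the lowest of the 4 in members' sites and also had the lowest median gene coverage, 82.4 against 99.2 to 110.9; the part of this in the site counts was not tested. Without dTAG13 library 1 the ratio was 0.997, and without dTAG13 library 2 it was 0.699.

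How often the sites of an untreated library were found again in the treated libraries was set against the other untreated library. Each untreated library was the reference in turn. Of the 252 member sites with at least 50 reads in untreated library 1, 22 (8.73%, Wilson 95% interval 5.84 to 12.9%) were listed in untreated library 2. In dTAG13 library 1 also 22 were listed and in dTAG13 library 2 21 (8.33%, 5.51 to 12.4%). The ratio of treated to untreated recovery was 1 for dTAG13 library 1 and 0.955 for dTAG13 library 2, a mean of 0.977 ± 0.032 (SD, n = 2). Both ratios share the 252 reference sites and the untreated count of 22. The SD therefore leaves out the error of that count and understates the uncertainty. Over all genes the shares were 11.1% in untreated library 2 and 6.00% and 6.38% in the dTAG13 libraries. From untreated library 2 the members' shares were 9.17% in untreated library 1 and 6.88% and 6.42% in the dTAG13 libraries, a ratio of 0.725. Over all genes these shares were 10.7%, 5.74% and 6.17%. Sites of 1 library are not replicates, and the difference between the ratios of 0.977 and 0.725 was not tested. Of the 25 sites with at least 50 reads and a level of 50% or more in untreated library 1, 4 were listed in untreated library 2 (Wilson 95% interval 6.40 to 34.7%) and 0 in either dTAG13 library, which allows a share of up to 12.0% by the limit of 3 counts of the total and 13.3% by Wilson. Sites with fewer reads are outside this count, among them 112364625 of Miat and 142823697 of Kcnq1ot1, which were each listed in a dTAG13 library. Those 4 were the Meg3 positions 109537983 and 109537991, 5852461 of Malat1 and 112361449 of Miat. From untreated library 2, under the same 2 limits, 0 of 38 member sites were listed in untreated library 1 and 1 and 0 in the dTAG13 libraries. Among the members the pattern was thus not seen from both untreated libraries. Over all genes, 15.1% of such sites of untreated library 1 were listed in untreated library 2 and 4.06% and 4.37% in the dTAG13 libraries.

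Positions listed in both groups were more often higher than lower with dTAG13. Of the 63 such member positions, 24 were lower and 39 higher, with a median difference of 2.89 points, and over all genes 43.1% of 44304 were lower and 56.0% higher, with a median of 1.57. With at least 50 reads in every listing, 22 of the 53 member positions were lower and 31 higher. Because a level under 10% is not listed, a site that fell below it in the treated libraries is missing from this comparison.

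**Figure D4:**
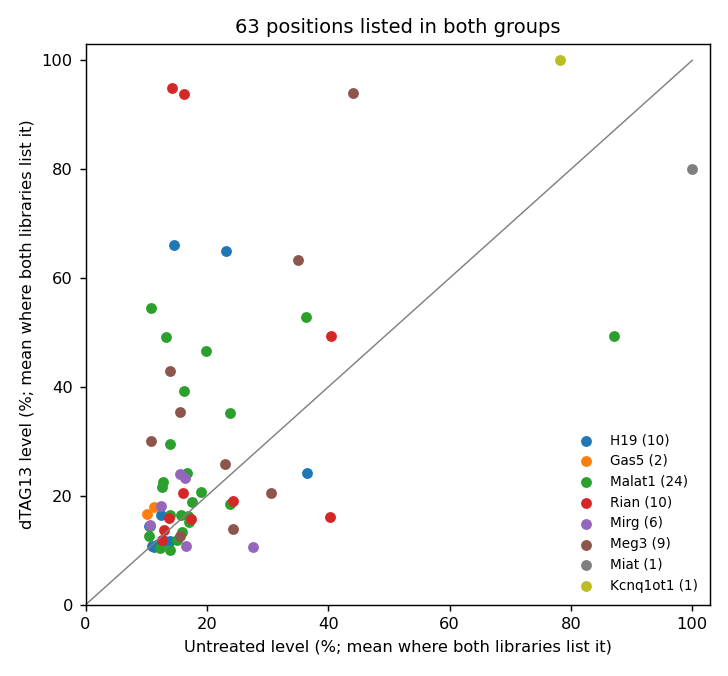
Mean level in the untreated libraries (horizontal axis, percent A reads) against mean level in the dTAG13 libraries (vertical axis) at the 63 positions listed in both groups, coloured by gene. Points lie on both sides of the line of equal levels, 39 above it and 24 below.

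Gene coverage is not scaled to depth in the tables, so it was set against the median of the 12520 genes listed in every library. No gene passed the test at an adjusted p of 0.05 with limma (0 of 12520, 0.00%), and 1595 (12.7%) had an unadjusted p under 0.05. Mirg was the only member among the latter. Its coverage was 104, 85.8, 109 and 180, and relative to the median gene 1.05, 0.831, 1.32 and 1.62, so that both dTAG13 libraries lay above both untreated ones. The log2 difference was 0.65 ± 0.23 (SE, adjusted p = 0.370 with limma). Kcnq1ot1, at 46.4, 48.9, 61.2 and 67.1, was also above in both treated libraries relative to the median gene, with a log2 difference of 0.51 ± 0.21 (SE, adjusted p = 0.394 with limma), while its number of listed sites was lower in both. H19, at 1444, 1575, 898 and 1170, lay below in both (-0.48 ± 0.20, SE, adjusted p = 0.393 with limma); its treated libraries had 26 and 27 sites against 20 and 26.

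The other members had log2 differences from -0.40 ± 0.24 (Malat1, at 398, 443, 222 and 407) to 0.27 ± 0.20 (Snhg11, at 94.4, 87.9, 92.7 and 116), both SE. The Malat1 difference was -0.18 without dTAG13 library 1 and -0.63 without dTAG13 library 2. Relative to the median gene, both dTAG13 libraries lay below both untreated ones for Malat1, Neat1, Rian and H19, and above for Meg3, Mirg, Kcnq1ot1 and Snhg11, that is for 8 genes, 4 in each direction, where the groups did not overlap for 46.2% of all genes, 3662 below and 2127 above. Miat and Gas5 overlapped. The median log2 difference was -0.03 for the members, 0.17 for the 26 genes of the other list found in every library and -0.07 for all genes. Without centring, the median of all genes was -0.15, and the sign of no member changed.

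The tables give each gene a conversion rate, which in GLORI is the share of adenosine reads of a gene that are read as G. No gene passed (0 of 12520, 0.00%, limma on the log odds), with 1540 (12.3%) at an unadjusted p under 0.05. The rate was higher in both dTAG13 libraries than in both untreated ones for 40.9% of all genes and lower in both for 6.05%. Among the members, Rian was higher, at 96.8% and 96.9% without dTAG13 and 98.0% and 97.6% with it (adjusted p = 0.488 with limma). Miat was lower, at 98.2% and 97.3% against 96.5% and 96.2%, a difference of -1.37 points (adjusted p = 0.432 with limma). The other 8 overlapped. Neat1 had the widest spread within a group, 98.3% and 95.0% in the dTAG13 libraries. All member rates lay between 94.5% and 98.3%. The unconverted share, at 5.52% or less, is a gene-wide value, whereas the listing limit of 10% applies to single sites. Whether conversion was less complete at single sites was not tested. The conversion rate was higher with dTAG13 at 7 of the 10 genes and lower at 3, with a median log odds difference of 0.14 against 0.21 over all genes.

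**Figure D5:**
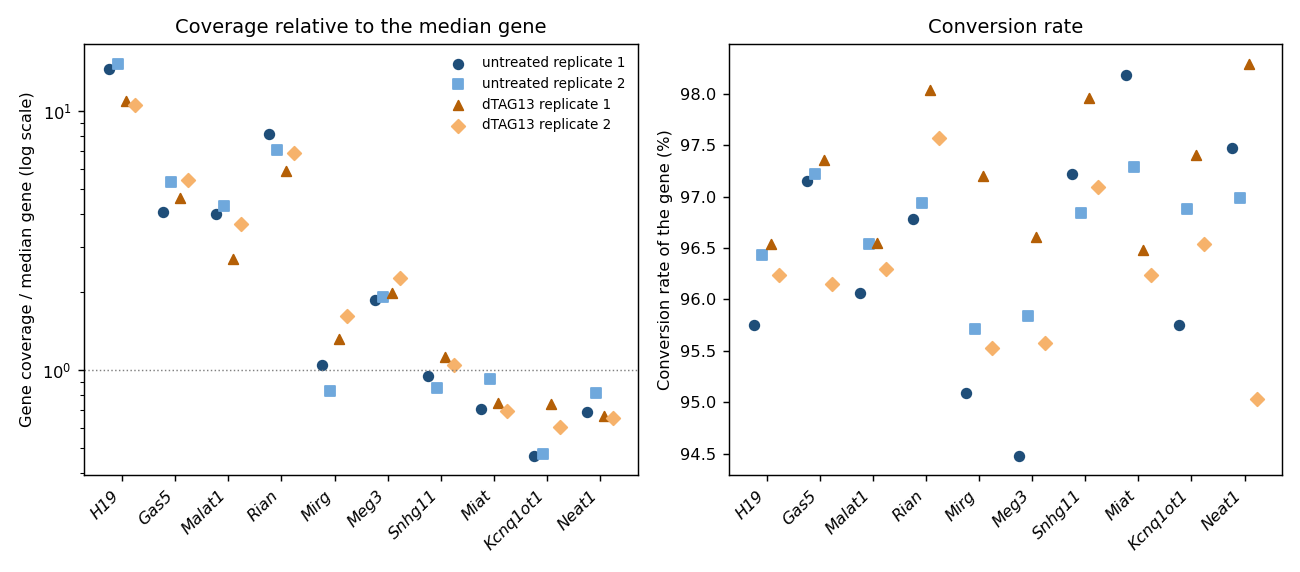
Gene coverage relative to the median gene (left, log axis) and conversion rate (right, percent) of the 10 genes in each of the 4 libraries, 1 point per library. Mirg and Kcnq1ot1 have both dTAG13 points above both untreated points in coverage, H19 and Malat1 have them below, and Rian and Miat are the genes whose conversion rates do not overlap.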

How the data were processed

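GLORI was run on poly(A) RNA of 4 libraries, 2 per group, grouped by their titles and treatment labels. Per the file headers, each deposited table gives, per site, the count of A and G reads, the count of A reads, their ratio as a fraction, a p-value and an adjusted p-value, and, per gene, a conversion rate (fraction) and a coverage signal. The authors' table names speak of read 2, trimming and UMIs, and the submitters' processing notes name mm10; the aligner, the caller and the definition of gene coverage are not given in the sources used here. No count was rescaled.

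Sites present in every table, with a minimum of 20 reads in each, were fitted with a quasi-binomial model whose dispersion was moderated with limma 3.58.1 (R 4.3.3) and held at 1 or above. Gene coverage (log2, centred) and conversion rate (log odds) were tested with limma. P-values were adjusted by Benjamini-Hochberg over all sites or genes. The scripts were tested on simulated data. Alternatives covered read and level minimums, other tests, filters, centring, pseudocounts and left-out libraries.

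The genes and lists were chosen with earlier results of these data known. Sites to be named were those listed in 3 or 4 libraries, those in 2 with at least 50 reads in both among the 10 highest mean levels per pair of libraries (63 of 91 repeated positions), and the highest site of genes without any. Further positions were singled out after their values were seen, and rule sites not printed singly are covered by counts and ranges.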

Additional observations from a re-analysis of the deposited data

How the results depend on the processing

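A site absent from a table has no read count, so all but 2 member positions could not be tested. The 53 called sites and 46 called genes became 0 and 0 with the replicate number as a block (replicate block; 218 sites and 147 genes at an unadjusted p under 0.05) and 531 and 428 with Fisher's exact test on summed reads, which ignores the spread between libraries. With 1 library left out they ranged from 0 to 0 and from 0 to 5. The numbers in the titles share only a number: same-numbered libraries deviated together with correlations of 0.0023 in coverage, 0.0083 in conversion rate and 0.019 in site level. Fisher's test passed Meg3 as a gene (adjusted p = 3.01e-11) and its sites 109510201 (4.25e-11) and 109511680 (0.0441); no other alternative passed them, with adjusted p up to 1.00. Without centring, 15 genes passed in coverage, against 0. The recovery ratio, 0.977, was 0.853 at a minimum of 200 reads, 1.02 without a minimum, 0 at a level of 50% or more and 0.725 from untreated library 2. With 1 library left out, log2 coverage differences ranged from -0.082 to 0.29 for Gas5 and from -0.36 to 0.018 for Miat. Log odds differences of conversion ranged from -0.012 to 0.17 for H19, -0.033 to 0.099 for Malat1, -0.61 to 0.49 for Neat1 and -0.32 to 0.064 for Gas5. The cause was not tested. The other 165 single-gene and single-site values kept direction and side of the threshold.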
